A study of Homo sapiens with 4 samples.

Results

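The H/ACA small nucleolar RNAs (snoRNAs, gene symbols opening with SNORA) and the small Cajal body RNAs (scaRNAs, symbols opening with SCARNA) were examined in the miR-28-5p pull out. Members were chosen by name alone: every RefSeq record of the deposited files whose symbol opens with SNORA or SCARNA was taken, whatever its values. This gave 139 records of 130 symbols, out of 53209 records of 24759 symbols. Of these, 115 records (106 symbols) were SNORA and 24 were SCARNA. The annotated lengths ran from 121 to 421 bases with a median of 134, and 7 records lay on alternate sequences of the assembly.

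The pull out was done in DU-145, a human prostate cancer line that was derived from a metastatic tumour. All cells were transfected at 60 nM, by lipofection, with double-stranded miR-28-5p, so that no arm lacked added miRNA. In the miR-28CT arm (2 libraries) the duplex had no tag, and what the streptavidin beads held was background RNA. In the miR-28BIO arm (2 libraries) a mixture of duplexes was used, biotinylated at the 3′ end and carrying thiouridine, a crosslinking base, at nucleotide 8 or 18. In both arms the cells were exposed after 24 h to ultraviolet light (365 nm, 2 J/cm2), 15 µg of RNA was kept on beads for 4 h, and the recovered RNA was made into stranded total RNA libraries and read as single reads of 50 bases. Every library is thus bead-bound RNA of 1 cell line, not total RNA, and a stranded total RNA kit is not made for short RNAs. In such bulk libraries, fewer cells that hold an RNA and less of it per cell cannot be told apart.

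H/ACA RNAs fold into hairpins joined by a hinge, end in the trinucleotide ACA shortly before the 3′ end, and guide the change of uridine to pseudouridine in ribosomal and spliceosomal RNA. They work in particles with dyskerin (DKC1), NOP10, NHP2 and GAR1. The scaRNAs modify spliceosomal small nuclear RNAs in the Cajal body, a nuclear compartment organised by coilin (COIL). Some scaRNAs are of the H/ACA type, some are of the box C/D type (guides of ribose methylation, with C and D boxes near their ends), and some join both types in 1 molecule. Most human members are cut out of the introns of other genes.

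The ends of a few members are printed because they show these types in RNAs whose values are described below. They were read from hg38 at the coordinates of the files. In the first set, the last 30 bases are given 5′ to 3′ with the ACA box in capitals.
SNORA73A (chr1:28507542-28507571, plus strand): ctggggagacaaaccatgcaggaaACAgcc
SNORA53 (chr12:98599855-98599884, plus strand): tatcaggactcgactcgtgtgcggACAttt
SNORA74A (chr5:139278950-139278979, plus strand): gagttgatcctagtctgggtgcaaACAatt
SCARNA13 (chr14:95533355-95533384, minus strand): ttctgttgaacactaagtactgccACAagt
In the second set, the last 30 bases of 3 scaRNAs with C and D boxes are given, with the D box in capitals.
SCARNA10 (chr12:6510522-6510551, plus strand): gaaacacagatctttggtaatCTGAtggct
SCARNA5 (chr2:233275974-233276003, plus strand): gcatgatctcaagttttcaatCTGAgacct
SCARNA7 (chr3:160514907-160514936, minus strand): tcattaaaatggtcctgtgatCTGAtccaa
The first 30 bases of SCARNA10 hold the matching C box, again in capitals.
SCARNA10 (chr12:6510222-6510251, plus strand): gccacATGATGAtatcaaggctgttgtgat

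Of the 126 records on primary chromosomes with a known strand, 111 (88.1%) held ACA within their last 10 bases, and in 98 of them exactly 3 bases followed it. Among 252 flanking stretches of the same lengths on the same strand, 28 (11.1%) held ACA in that place, 3 of them with exactly 3 bases after it. All 14 H/ACA scaRNAs had it with 3 bases after it, as against 0 of 3 box C/D scaRNAs and 0 of 4 mixed scaRNAs. The letters TGAG, the core of the CAB box that directs scaRNAs to Cajal bodies, were found on the member's strand in 66.7% of SCARNA and 42.9% of SNORA records, and in 60.3% of the flanking stretches, so that these 4 letters alone did not set the scaRNAs apart. All motifs were searched on 1 strand only.

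The authors deposited FPKM, which count fragments relative to transcript length and to the size of the library. Cufflinks divides by an effective length, which for RNAs shorter than a typical library fragment is far below the annotated one. With its default fragment lengths (a mean of 200 and an SD of 80 bases), an RNA of the median length of 134 bases has an effective length of 8.39 bases, so that a single fragment is worth several FPKM. The number of fragments behind each value was estimated from this length and the library totals, 17.9 and 13.0 M fragments in the 2 miR-28CT and 17.3 and 14.7 M in the 2 miR-28BIO samples. Below 10 fragments, 89.4% and 87.5% of the members' estimates in replicate 1 of miR-28CT and miR-28BIO lay within 0.05 of a whole number, while 3.13% and 15.6% did so in replicate 2, where an even spread would give 10%. The estimate thus holds for replicate 1 and is approximate for replicate 2. Sums and shares of fragments below weigh long RNAs more and say how much of a library a set of RNAs took up, while the level of an RNA is given as FPKM, a value per effective length.

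As a check of the labelled cells, 4 of 9 marker genes passed the filter on low values. A gene with several RefSeq records is given here by the sum of their FPKM. Among the epithelial markers, KRT8 had 27.0 and 30.5 FPKM in the miR-28CT and 13.3 and 21.5 FPKM in the miR-28BIO libraries. KRT18 had 27.9 and 83.7 against 18.1 and 37.4 FPKM, and EPCAM and CDH1 lay between 0.907 and 5.26 FPKM. KLK3, a gene of luminal prostate cells that DU-145 is known to lack, and the leukocyte and endothelial genes PTPRC and PECAM1 were listed at 0 in every record and all 4 libraries, and the fibroblast gene COL1A1 did not exceed 0.178 FPKM.

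Per M fragments of the library, the H/ACA and Cajal body RNAs had fewer fragments in miR-28BIO than in miR-28CT in each replicate pair. Their summed fragments came to 263 and 1237 per M fragments of the library in miR-28CT replicates 1 and 2 and to 51.0 and 281 per M in miR-28BIO replicates 1 and 2. The miR-28CT library held 5.16 times the miR-28BIO value in replicate pair 1 and 4.40 times in pair 2. Replicate 2 held 4.70 times the value of replicate 1 in miR-28CT and 5.52 times in miR-28BIO. The difference between the replicates was thus about as large as that between the arms, and the arms overlapped. On the FPKM scale, where short RNAs weigh more, the sums of unscaled FPKM differed 2.62-fold and 2.11-fold between the arms. As a share of the summed FPKM of all records, which differed between the libraries too, they made up 2.04% and 2.23% in miR-28CT and 1.38% and 2.82% in miR-28BIO, so that by this measure the pairs went opposite ways and miR-28BIO replicate 2 was the highest of the libraries. A few RNAs, longer than most, carried much of the sum of fragments: SNORA73A, SCARNA10, SCARNA7 and SCARNA2 together accounted for 77.2% and 74.6% of the members' fragments in the miR-28CT and 52.1% and 42.1% in the miR-28BIO libraries. Without these 4, which were singled out for their size, the miR-28CT libraries still held 2.45 and 1.93 times the miR-28BIO value. The sums come from 64 and 69 records above 0 in the miR-28CT and 49 and 81 in the miR-28BIO libraries.

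**Figure D1:**
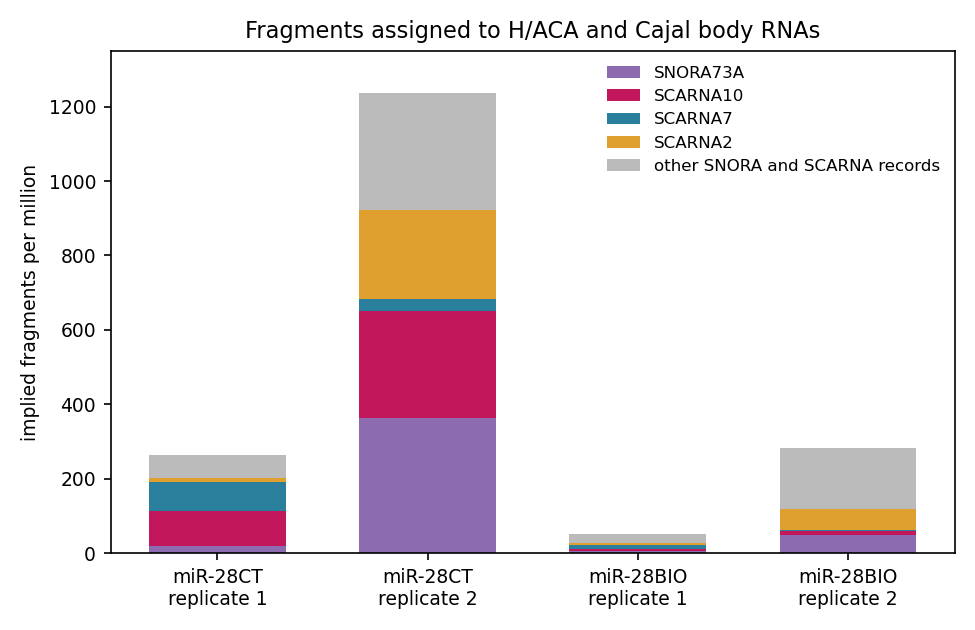
Bars give the implied fragments per M fragments of the library assigned to all SNORA and SCARNA records in each of the 4 libraries, split into the 4 RNAs with the most fragments and the others. The totals were 263 and 1237 in miR-28CT and 51.0 and 281 in miR-28BIO, and in each replicate pair the miR-28CT bar was the taller one.

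Of the 139 records, 92 (74 SNORA and 18 SCARNA) passed the filter on low values and entered the test, among 15587 transcripts in all. The filter was on the mean of the 4 libraries, so that an RNA could pass through 1 arm alone. Of the 92, 28 were above 0 in all 4 libraries and 64 were listed at 0 in at least 1. Comparing the arms with limma and Benjamini-Hochberg adjustment over all 15587 transcripts, 0 members were higher and 0 were lower in miR-28BIO at an adjusted p of 0.05, as for all transcripts (0.0% higher and 0.0% lower). The smallest adjusted p of a member was 0.593 by limma. At an unadjusted p of 0.05, limma gave 3 members higher (3.26%, against 2.09% of all transcripts) and 5 lower (5.43%, against 1.49%). With 2 libraries per arm, an exact two-sided permutation test of a single RNA cannot give a p below 0.333. None of the differences between the arms that follow therefore passed the test, and they are given as values. FPKM of single libraries are printed as deposited, while folds within a pair and log2 fold changes were taken after scaling by the size factors of the libraries.

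Both miR-28BIO values lay below both miR-28CT values for 10 members (10.9%, against 12.0% of all transcripts) and above both for 4 (4.35%, against 11.5%). These shares were near or under those of all transcripts. They depended on single libraries: the count below was 48 (52.2%, against 36.6% of all transcripts) without miR-28CT replicate 1, 17 (18.5%, against 30.5%) without miR-28CT replicate 2, 13 (14.1%, against 25.2%) without miR-28BIO replicate 1 and 32 (34.8%, against 29.6%) without miR-28BIO replicate 2. In the same order, the count above was 7 (7.61%, against 27.4%), 22 (23.9%, against 23.4%), 32 (34.8%, against 26.5%) and 9 (9.78%, against 30%). A count within the replicate pairs differed more: 15 members (16.3%) were lower in miR-28BIO by at least 1 on the log2 scale in both pairs, against 5.19% of all transcripts, and 5 (5.43%) were higher by as much in both pairs, against 5.08%. With the replicate number as a block in limma, 14 members were lower at an unadjusted p of 0.05 (15.2%, against 7.13% of all transcripts) and 3 were higher (3.26%, against 4.88%), and the smallest adjusted p of a member was 0.347. Over the 92 members, 24 were lower in both pairs by any amount (26.1%, against 30.5% of all transcripts), 11 were higher in both (12.0%, against 24.2%), 31 moved in opposite directions and 26 had no difference in at least 1 pair because both of its values were 0. These directions were taken by sign alone, so that near-equal values also counted, such as a difference of 0.06 for SNORA63 in pair 1.

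Of the 4 tested scaRNAs that join C/D and H/ACA parts, SCARNA10 and SCARNA5 had arms that did not overlap. SCARNA10 (U85), a guide for U5 small nuclear RNA that lies in an intron of NCAPD2 on chromosome 12 (6510222 to 6510551), measured 721 FPKM in replicate 1 and 2208 FPKM in replicate 2 of miR-28CT, against 46.6 and 69.7 FPKM in miR-28BIO. Values below are given in the same order of replicates. The arms did not overlap, and the values rested on 1682, 3742, 105 and 133 fragments. After scaling, the miR-28CT value was 15.3 times the miR-28BIO value in pair 1 and 40.5 times in pair 2. The log2 fold change was -4.64 (SE 1.02, n = 2 per arm, limma adjusted p of 1.00, and 0.347 with the replicate block).

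SCARNA5 (U87), from an intron of ATG16L1 on chromosome 2 (233275726 to 233276003), measured 50.7 and 345 FPKM in miR-28CT and 5.97 and 21.3 FPKM in miR-28BIO. Its arms did not overlap either, and the log2 fold change was -3.71 (SE 1.34, limma adjusted p of 1.00, and 0.347 with the block). SCARNA6 (U88) lies in the same host gene and shared 68.0% of its aligned bases with SCARNA5. It had 4.35 and 249 FPKM in miR-28CT and 1.50 and 186 FPKM in miR-28BIO, so that its arms overlapped and the replicates differed far more than the arms (log2 fold change of -1.12, SE 3.29). SCARNA12 (U89), in PHB2 on chromosome 12, showed no such difference: with 44.2 and 308 FPKM in miR-28CT and 47.2 and 369 FPKM in miR-28BIO, its log2 differences were 0.10 and -0.09 in the pairs. SCARNA5, SCARNA6 and SCARNA12, with means of 122, 112 and 213 fragments, thus differed in their fold changes. Unlike SCARNA5 and SCARNA6, SCARNA12 overlaps an exon in some transcripts of its host, so that its values may include reads of the spliced host.

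Among the box C/D scaRNAs, SCARNA7 (U90), in an intron of KPNA4 on chromosome 3 (160514907 to 160515236), measured 597 and 250 FPKM in miR-28CT and 90.4 and 32.5 FPKM in miR-28BIO. It was the reverse of most members in that replicate 1 was the higher one in both arms. The arms did not overlap, with a log2 fold change of -3.003 (SE 0.86, limma adjusted p of 1.00, and 0.347 with the block). SCARNA2, a guide of methylation in U2 small nuclear RNA with a gene of its own on chromosome 1 (109100193 to 109100612), measured 50.5 and 1097 FPKM in miR-28CT and 17.1 and 252 FPKM in miR-28BIO. It was lower in miR-28BIO in each pair (2.93-fold and 5.56-fold), while its arms overlapped (log2 fold change of -2.01, SE 2.25). Of the other members of this type, SCARNA9 had 12.7 and 27.8 FPKM in miR-28CT and 14.8 and 28.4 FPKM in miR-28BIO, and SCARNA17 had 3.19 and 19.5 against 4.33 and 12.2 FPKM, with log2 differences of 0.44 and -1.03 in the pairs. SCARNA9L, a copy of SCARNA9 in EIF1AX with 94.0% identity, so that reads may be split between them, lay between 7.83 and 12.7 FPKM in all 4 libraries.

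**Figure D2:**
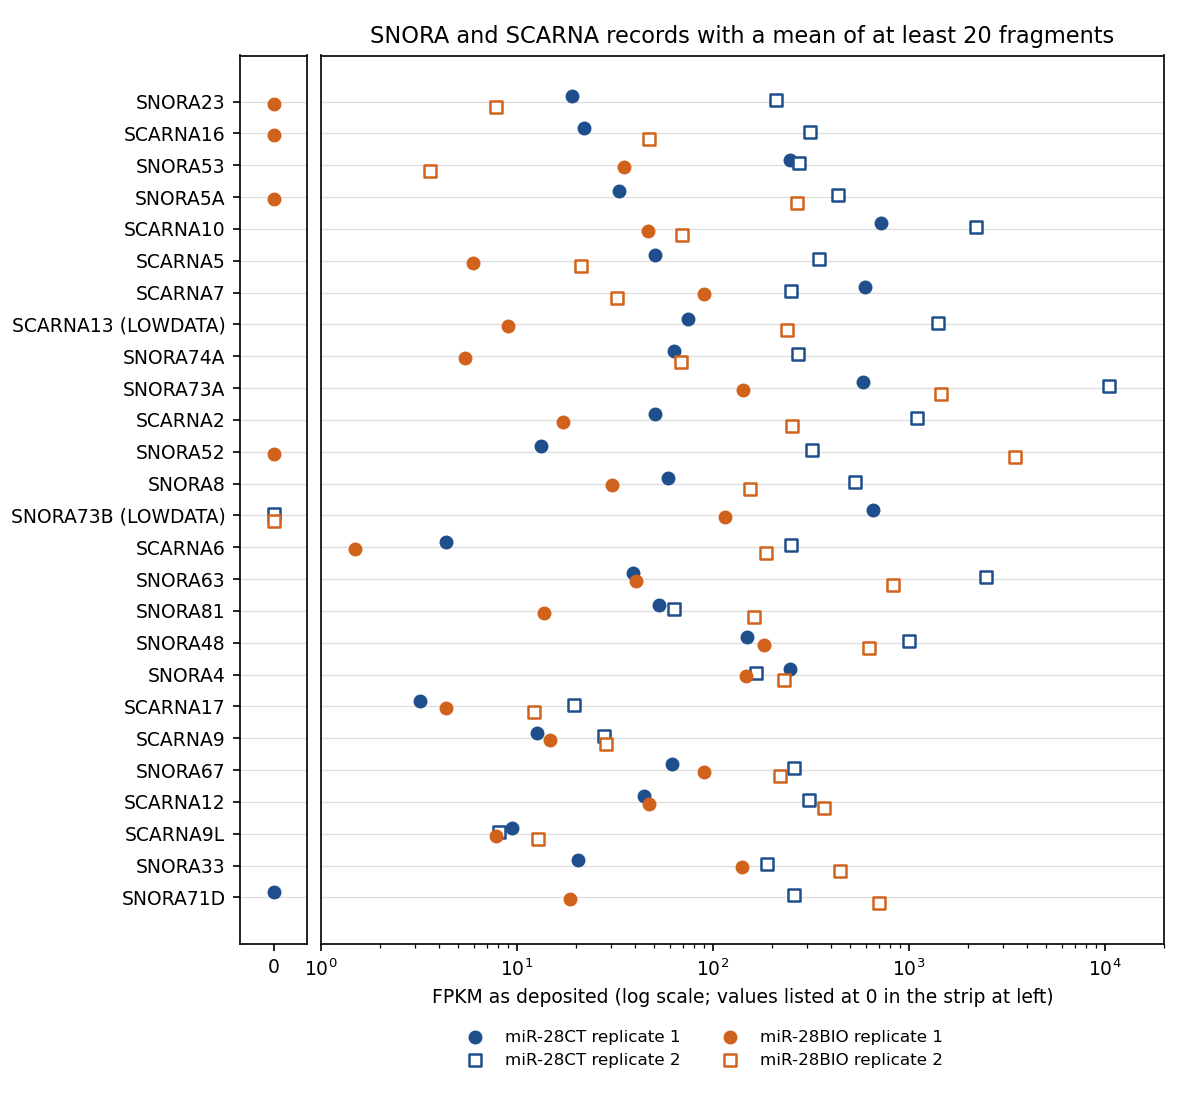
Points give the deposited FPKM (log axis, zeros in the strip at left) of the 26 records with a mean of at least 20 implied fragments, sorted by fold change, in the miR-28CT (blue) and miR-28BIO (orange) libraries of replicates 1 (filled circles) and 2 (open squares). For SCARNA10, SCARNA5, SCARNA7, SNORA53 and SNORA23 both orange points lie left of both blue points, whereas for SCARNA12 and SCARNA9 the points separate by replicate and not by arm.

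Of the H/ACA scaRNAs, SCARNA13 (U93) had the highest values in all libraries except miR-28BIO replicate 1, with 74.8 and 1399 FPKM in miR-28CT and 9.04 and 238 FPKM in miR-28BIO. After scaling it was 8.21-fold and 7.52-fold lower in miR-28BIO in the pairs. Its Cufflinks status was LOWDATA in all 4 libraries, so it was not tested, and it lies in SNHG10, in a stretch that some transcripts of that gene keep as an exon. SCARNA16, in SNHG20, had 21.9 and 313 FPKM in miR-28CT and 0 and 47.0 FPKM in miR-28BIO. The remaining tested RNAs of this type rested on few fragments. SCARNA4, in an intron of KHDC4, was listed at 0 in both miR-28CT libraries and had 7.81 and 4.26 FPKM in miR-28BIO, which stand for about 1 fragment or less.

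Among the SNORA records, SNORA73A (U17), which takes part in the cleavage of precursor ribosomal RNA and guides no known pseudouridine, had the highest scaled FPKM by the mean of the 4 libraries. Its FPKM were 582 and 10481 in miR-28CT and 143 and 1448 in miR-28BIO. Within the pairs it was 4.05-fold and 9.26-fold lower in miR-28BIO, but miR-28BIO replicate 2 exceeded miR-28CT replicate 1, so the arms overlapped (log2 fold change of -2.61, SE 2.39, limma adjusted p of 1.00, and 0.354 with the block). SNORA73A lies at 28507365 to 28507571 of chromosome 1 in SNHG3, a non-coding host gene, in a stretch that some host transcripts keep as an exon. Its neighbour SNORA73B shares 95.6% of the aligned bases, so reads may be split between them. SNORA73B, with status LOWDATA throughout, had 653 and 0 FPKM in miR-28CT and 115 and 0 FPKM in miR-28BIO, and is uncertain for this reason.

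SNORA53, in SLC25A3 on chromosome 12 (98599635 to 98599884), measured 247 and 275 FPKM in miR-28CT and 35.2 and 3.58 FPKM in miR-28BIO. The miR-28CT libraries lay close together, and both miR-28BIO values lay well below them, 6.96-fold in pair 1 and 98.3-fold in pair 2. The log2 fold change was -4.69 (SE 1.27, limma adjusted p of 1.00, and 0.387 with the block). SNORA74A (U19), in an intron of SNHG4 on chromosome 5, had 63.2 and 270 FPKM in miR-28CT and 5.44 and 68.5 FPKM in miR-28BIO. Here miR-28BIO replicate 2 reached miR-28CT replicate 1, and the log2 differences in the pairs were -3.50 and -2.33. Its relative SNORA74B, with 71.0% of aligned bases in common, had 0 and 29.2 FPKM in miR-28CT and 5.10 and 6.53 FPKM in miR-28BIO, with opposite directions in the pairs.

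SNORA23, in an intron of IPO7, had 19.0 and 209 FPKM in miR-28CT and 0 and 7.80 FPKM in miR-28BIO, with arms that did not overlap. The precursor-processing RNA SNORA63 (E3) did not share this pattern. It had 39.0 and 2467 FPKM in miR-28CT and 40.3 and 826 FPKM in miR-28BIO, nearly equal in pair 1 and 3.82-fold lower in miR-28BIO in pair 2. SNORA62 (E2) had 8.37 and 8.27 FPKM in miR-28CT and 0 and 52.3 FPKM in miR-28BIO, so that the pairs went opposite ways.

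**Figure D3:**
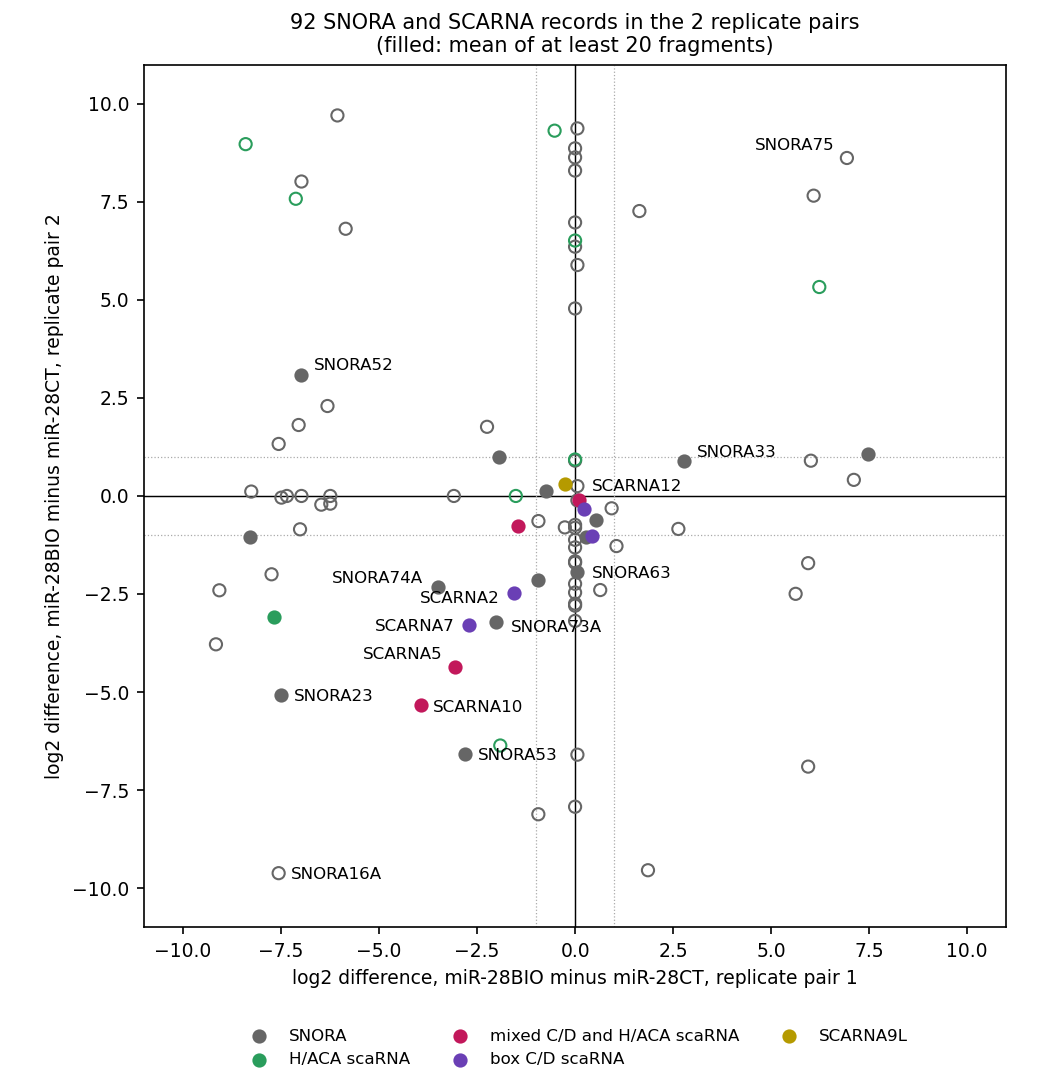
Each of the 92 tested records is placed by its log2 difference between miR-28BIO and miR-28CT in replicate pair 1 (horizontal) and pair 2 (vertical), coloured by type and filled where it had a mean of at least 20 fragments. In the lower left, 15 records lie below -1 in both pairs, among them SCARNA10, SCARNA5, SCARNA7, SCARNA2, SNORA73A, SNORA74A and SNORA53, and 5 lie above 1 in both pairs.

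Several RNAs at the extremes of the fold changes rested on few fragments, whereas SNORA23 (-6.28, a mean of 20.4 fragments) and SCARNA16 (-5.39, a mean of 32.1 fragments) had more. SNORA16A, in SNHG12, had 20.0 and 66.8 FPKM in miR-28CT, about 3.0 and 7.28 fragments, and was listed at 0 in both miR-28BIO libraries. SNORA57 had 60.7 and 71.2 FPKM in miR-28CT and 0 and 6.52 FPKM in miR-28BIO, and SNORA27 had 57.2 and 209 against 0 and 50.4 FPKM. In the other direction, SNORA75, from NCL, was listed at 0 in both miR-28CT libraries and had 12.8 and 42.7 FPKM in miR-28BIO, from about 1.99 and 5.64 fragments. SNORA66, from an intron of RPL5, was also listed at 0 in both miR-28CT libraries, against 7.06 and 21.9 FPKM, and SNORA80A had 12.7 and 0 FPKM in miR-28CT against 13.1 and 72.0 FPKM. SNORA16A and SNORA75 had the smallest adjusted p among the members (0.593 each by limma), and no fold is given against an arm listed at 0. All 4 members whose miR-28BIO values both lay above the miR-28CT values rested on few fragments, and among the 24 tested members with a mean of at least 20 fragments there were 0 such RNAs (0.0%, against 11.9% of the 14310 transcripts with as many fragments) and 5 with the arms the other way round (20.8%, against 12.1%). This mean was taken over both arms. SNORA23 and SCARNA5, both among the 5, reached it through their miR-28CT values, so that these counts support no direction.

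Several abundant RNAs did not follow the lower values of miR-28BIO. SNORA33, in an intron of RPS12, had 20.5 and 188 FPKM in miR-28CT and 141 and 445 FPKM in miR-28BIO, higher in both pairs with overlapping arms (log2 fold change of 1.84, SE 1.49). SNORA71D, in SNHG17, had 0 and 259 FPKM in miR-28CT and 18.7 and 700 FPKM in miR-28BIO. SNORA52, in RPLP2, had 13.3 and 319 FPKM in miR-28CT and 0 and 3491 FPKM in miR-28BIO, the second highest value of any member in any library, so that a single library set its level. SNORA4 (247 and 165 against 147 and 231 FPKM) and SNORA48 (149 and 1005 against 181 and 622 FPKM) come from EIF4A2 and EIF4A1. SNORA48 differed less between arms (-0.38) than between replicates (2.40 on the log2 scale), while SNORA4 differed little in either way (-0.30 and 0.17).

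By class, the median log2 fold change was -0.72 over the 74 SNORA and -0.17 over the 18 SCARNA records, against -0.08 over all transcripts. The medians by pair were 0.00 and -0.46 for SNORA and -1.49 and -0.21 for SCARNA. By type, the median log2 fold changes were -2.42 for the 4 mixed and -1.15 for the 4 box C/D scaRNAs. For the 9 tested H/ACA scaRNAs, among which SCARNA13 is missing, the median was 0.29, with 6 higher and 3 lower in miR-28BIO. Their medians by pair were -1.51 in pair 1 and 5.33 in pair 2, with many values at 0. The box C/D snoRNAs (SNORD, 114 tested) had a median of -0.36. Other small non-coding RNAs, taken by symbols opening with RNU or RN7S (10 tested), had one of -3.35, with all 10 lower in miR-28BIO. Of the SNORD records 62 of 114 were lower in miR-28BIO, as were 8439 of all 15587 transcripts, and 21.9% of SNORD were lower in both pairs, against 30.5% of all. The medians depended on single libraries: that of SNORA was 1.56 without miR-28BIO replicate 1 and 0.62 without miR-28CT replicate 2, but -2.98 without miR-28BIO replicate 2 and -2.62 without miR-28CT replicate 1. That of SCARNA ranged from -1.93 without miR-28BIO replicate 2 to 0.41.

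**Figure D4:**
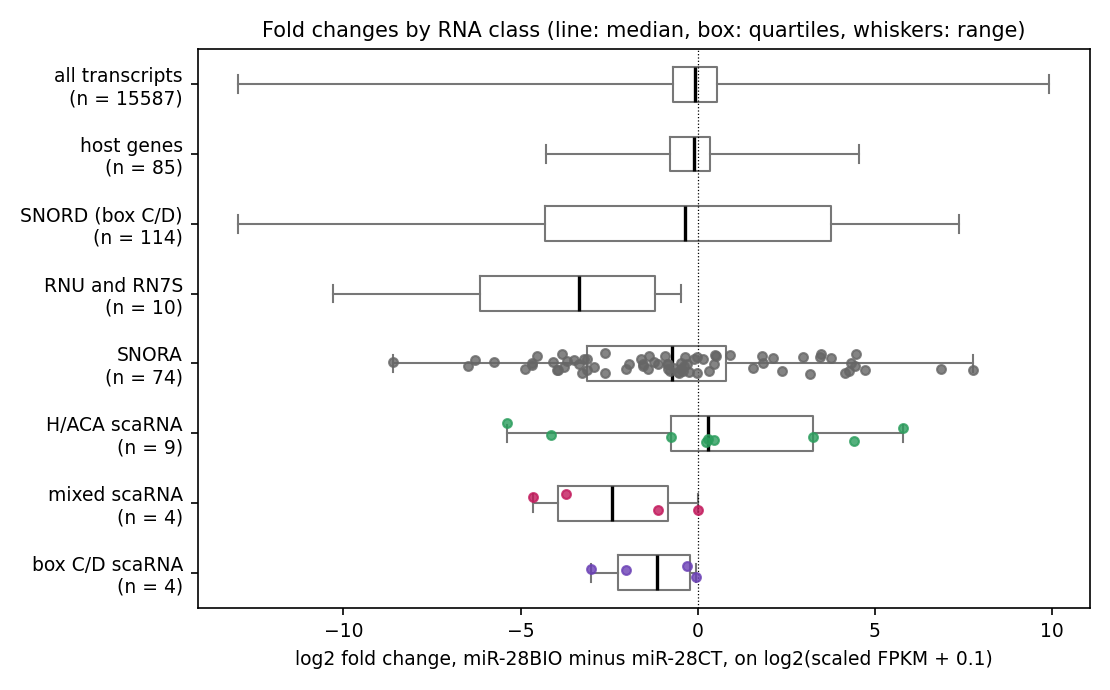
Boxes show the quartiles and median of the log2 fold change (miR-28BIO minus miR-28CT) of each RNA class, whiskers its full range, and points the single SNORA and SCARNA records. The SNORA box, from -3.12 to 0.80, is far wider than that of all transcripts, from -0.69 to 0.54, and the mixed and box C/D scaRNAs lie at or below 0.00.

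The members also differed by length. Of the 19 tested records longer than 150 bases, 10 were lower in miR-28BIO by at least 1 in both pairs and 0 were higher by as much, with a median log2 fold change of -2.01. Of the 73 shorter ones, 5 were lower and 5 were higher, with a median of -0.48. Over all transcripts, 5.19% were lower and 5.08% were higher by as much in both pairs. The split at 150 bases was chosen after the values were seen and separates SNORA57 and SNORA6 (149 bases) from SNORA62 (154 bases). Fragment numbers moved with it, since the longer records had a median of 44.5 fragments and the shorter ones of 3.18, and 58 of the 73 shorter records were listed at 0 in at least 1 library, against 6 of 19. The part of fragment number in the difference by length was not tested.

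**Figure D5:**
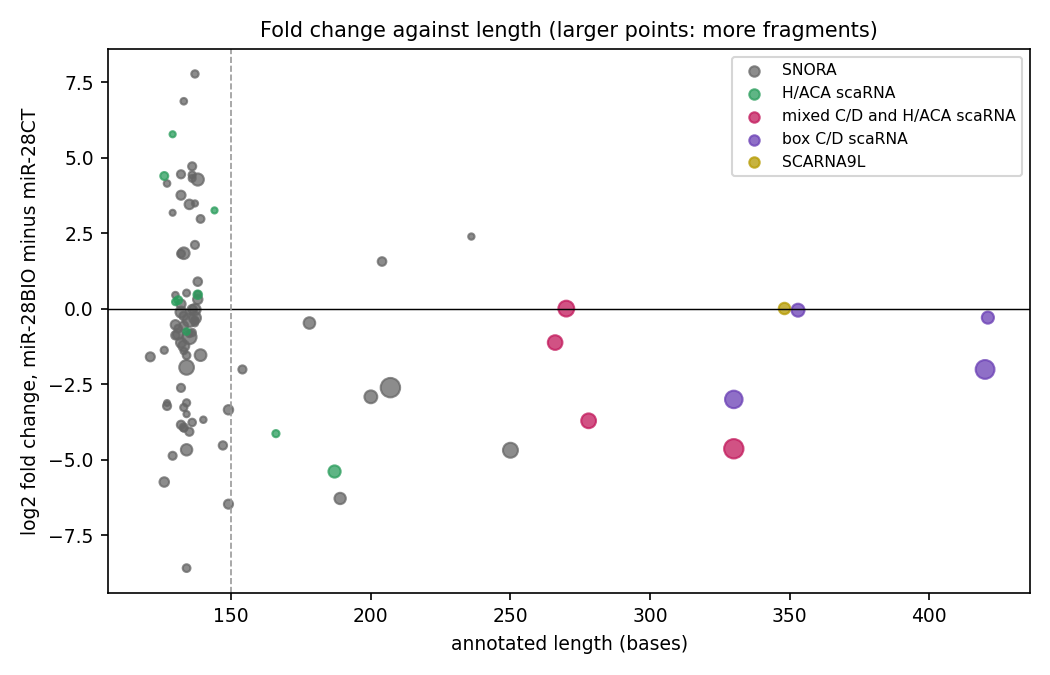
The log2 fold change of the 92 tested records is plotted against annotated length in bases, with larger points for more fragments and a dashed line at 150 bases. Short records scatter widely to both sides of 0 with small points, while the records of more than 150 bases mostly lie below it, with a median of -2.01.

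Differences between the replicates were common. In a limma fit with the arm and the replicate as terms, 34 of the 92 members were higher in replicate 2 at an unadjusted p of 0.05 (37.0%, against 17.2% of all transcripts) and 4 were lower (4.35%, against 14.6%), while 0 passed after adjustment (smallest adjusted p of 0.0720). This call depended on the processing: after adjustment, limma called 22 members higher (26.8%, against 16.7% of all transcripts) and 0 lower (0.0%, against 8.99%) in replicate 2 with a minimum mean scaled FPKM of 5. With FPKM summed per gene symbol, it called 37 higher (40.2%, against 23.1% of all genes) and 4 lower (4.35%, against 19.6%). The median log2 difference between replicate 2 and replicate 1 was 3.44 for SNORA and 1.21 for SCARNA, against 0.06 for all transcripts. Of the 92 members, 74 were higher in replicate 2, as were 8013 of all 15587 transcripts. SNORA9, from SNHG15, was at 0 in both libraries of replicate 1 and at 499 and 116 FPKM in replicate 2 of miR-28CT and miR-28BIO. SNORA8, from TAF1D, had 58.9 and 533 FPKM in miR-28CT and 30.5 and 155 FPKM in miR-28BIO, again with the replicates further apart than the arms. SNORA5A, from an intron of TBRG4, had 33.3 and 436 against 0 and 269 FPKM. In all, 21 tested members were listed at 0 in both libraries of replicate 1, and 5 in both libraries of replicate 2. By arm, 10 were at 0 in both miR-28CT and 5 in both miR-28BIO libraries. Of the 21 at 0 in replicate 1, 12 were lower and 9 higher in miR-28BIO than in miR-28CT in replicate 2, and most rested on few fragments (a median over these RNAs of 1.39 in the mean of the 4 libraries). Those with the most fragments besides SNORA9 were lower in miR-28BIO replicate 2: SNORA24 (from SNHG8) had 338 FPKM in miR-28CT and 133 FPKM in miR-28BIO replicate 2, about 34.3 and 15.2 fragments, and SNORA18 (from TAF1D) had 318 and 86.1 FPKM, about 33.1 and 10.1 fragments. SNORA32, also from TAF1D, had 261 and 36.6 FPKM. In the opposite direction, SCARNA21 had 39.6 FPKM in miR-28CT and 96.6 FPKM in miR-28BIO replicate 2. The 4 members lower in replicate 2 at an unadjusted p of 0.05 by limma were SCARNA7, SNORA71B, SNORA22 and SCARNA18, and of these the last 2 were listed at 0 in replicate 2 of both arms. These RNAs were named after their values were seen. The difference in whole fragment numbers described above runs between the same libraries, and its part in these values was not tested.

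Of the 139 records, 71 lay wholly in introns of a host gene, 59 overlapped an exon in some transcript of the host and 9 had no host in GENCODE 44. In the second kind, reads of the host and of the snoRNA cannot be told apart. Reads of unspliced host RNA were not set apart from those of the snoRNA in the first kind either. For 81 tested members the host (59 genes) was tested too. A host was represented by its record with the highest mean. Member and host fold changes were hardly related (Pearson r = 0.04, Spearman rho = 0.12 over 81 members, which share hosts and libraries), and they remained so with the records of each host summed (r = 0.16, rho = 0.15). For the 20 of these with at least 20 fragments, 18 had a host fold change within 1 on the log2 scale of 0, and all 20 had with summed records. Among the hosts of RNAs with large differences, NCAPD2 (SCARNA10) had -0.05, KPNA4 (SCARNA7) 0.54, SLC25A3 (SNORA53) -0.39, IPO7 (SNORA23) -0.77 and ATG16L1 (SCARNA5) 0.73, the last by a record at 0 in both libraries of replicate 2 (0.14 with its 5 records summed). TBRG4, the host of SNORA5A (log2 fold change of -4.67), had -3.95 by its highest record but -0.94 with its 4 records summed. SNHG3, the host of SNORA73A, had 1.01 by its highest record and 0.07 with its 2 records summed.

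Of the 13 host genes with at least 2 tested members, 7 had all of them lower in miR-28BIO, 1 had all of them higher and 5 had members in both directions, by the fold change over both pairs. Only for 1 of the 13, ATG16L1, were all members lower in each pair as well, and for 0 were all higher in each pair. All 6 snoRNAs of TAF1D had fold changes below 0, between -3.22 and -0.11 on the log2 scale, but in pair 1 SNORA1 (0.64) and SNORA25 (1.06) were higher in miR-28BIO. All 6 were higher in replicate 2, SNORA18 and SNORA32 from 0 in both libraries of replicate 1. TAF1D itself, with 27.5 and 4.85 FPKM in miR-28CT and 23.2 and 6.38 FPKM in miR-28BIO, was lower in replicate 2, by -2.02. The 3 snoRNAs of EIF4A2 had fold changes between -0.94 and -0.30. SNORA4 and SNORA81 went opposite ways in the pairs, while SNORA63 was nearly equal in pair 1 (0.06) and lower in pair 2 (-1.93). The 4 snoRNAs of SNHG17 ranged from -0.79 to 4.28, although the host had 10.0 and 9.94 FPKM in miR-28CT and 9.21 and 8.77 FPKM in miR-28BIO.

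The protein partners of the H/ACA RNAs were examined as messenger RNAs. Of 8 genes for H/ACA proteins and assembly factors, 8 were tested and 0 were called by limma after adjustment, with a median log2 fold change of -0.57, and 1 was lower at an unadjusted p of 0.05 (1.49% of all transcripts were), each gene taken by its record with the highest mean. On scaled FPKM the arms did not overlap for 5 of the 8, with 1 higher in miR-28BIO and 4 lower (11.5% and 12.0% of all transcripts were), and with records summed 3 were lower. The gene that passed the unadjusted p was DKC1, the pseudouridine synthase, with 10.0 and 4.39 FPKM in miR-28CT and 0 and 1.32 FPKM in miR-28BIO for that record. Summed over its 6 records DKC1 had 15.2 and 5.16 against 12.0 and 5.65 FPKM, with overlapping arms and a log2 fold change of -0.27. In the limma fit of summed FPKM the unadjusted p was 0.715 for DKC1 and 0.034 for NOP10, which was higher in miR-28BIO. NOP10, which has 1 record, had 161 and 339 FPKM in miR-28CT and 1498 and 3931 FPKM in miR-28BIO, with arms that did not overlap (log2 fold change of 3.21, limma adjusted p of 1.00). Summed over 2 records each, NHP2 had 13.0 and 84.5 against 4.73 and 43.5 FPKM, and GAR1 0.765 and 1.10 against 2.57 and 0.879 FPKM. The assembly factor NAF1 lay between 0.648 and 1.16 FPKM in the same way, with overlapping arms, and SHQ1 had 4.00 and 2.48 against 2.71 and 2.07 FPKM, with arms that were apart after scaling (log2 fold change of -0.56). RUVBL1 and RUVBL2, ATPases that take part in the assembly of these particles, had 22.4 and 15.0 against 14.2 and 13.3 FPKM and 29.9 and 34.1 against 13.9 and 21.3 FPKM, with log2 fold changes of -0.59 and -1.06.

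Of 9 Cajal body and telomerase genes, 8 were tested, 0 were called by limma after adjustment, and 1 was higher at an unadjusted p of 0.05 (2.09% of all transcripts were). That gene was COIL, which encodes coilin, with 11.4 and 2.40 FPKM in miR-28CT and 87.6 and 41.0 FPKM in miR-28BIO (log2 fold change of 3.32, limma adjusted p of 1.00). WRAP53, which brings scaRNAs to the Cajal body, had 5.92 and 9.52 against 3.23 and 5.90 FPKM by its record with the highest mean (log2 fold change of -0.94, with arms apart), but 5.92 and 9.52 against 6.61 and 11.3 FPKM summed over 4 records (0.028). NOLC1, a nucleolar and coiled-body phosphoprotein, had 15.7 and 2.39 FPKM in miR-28CT and 12.3 and 3.25 FPKM in miR-28BIO summed over 3 records. TERC, the telomerase RNA, which has an H/ACA domain but lies outside the SNORA and SCARNA symbols, had 7.65 and 167 FPKM in miR-28CT and 4.45 and 81.3 FPKM in miR-28BIO. It was lower in miR-28BIO in both pairs, by -0.76 and -1.39 on the log2 scale, and higher in replicate 2, by 4.43. SMN1, whose product builds the cores of spliceosomal particles and which has a near-identical copy, was listed at 0 in all 4 libraries in each of its 10 records, 6 of them on alternate sequences, and was not tested. The record taken for SMN1 had status LOWDATA in all 4 libraries, so that its 0 does not show a low level.

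The 47 records outside the test consisted of 40 with status OK that were listed at 0 in all 4 libraries and 7 with status LOWDATA in all of them, of which SCARNA13 and SNORA73B had values above 0. The 40 include 7 on alternate sequences. Being listed at 0 in these files does not show that an RNA was absent from the cells.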

How the data were processed

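RNA recovered by the pull out was measured in 4 libraries, 2 miR-28CT and 2 miR-28BIO samples, grouped by their labels. Per the submitters' processing notes and the paper's methods, the authors checked reads with FastQC 0.10.1, trimmed them with cutadapt, aligned them to hg38 with TopHat2 2.0.9 and estimated abundance with Cufflinks 2.1.1. Further Cufflinks options are not given in the sources used here. The authors deposited FPKM per RefSeq record with a status and a read coverage. The coverage signal deposited by the authors served here only to estimate the fragment totals. The FPKM hold no counts, so count models were not used.

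All records were scaled by median-of-ratios factors, taken from the 11650 above 0 in all 4 libraries among the 52530 with status OK in each (1.06 and 0.850 in miR-28CT, 1.06 and 1.09 in miR-28BIO). Records with status OK in each whose scaled FPKM averaged 0.5 or more (15587) went into limma (lmFit, then eBayes with trend; no block) as log2(scaled FPKM + 0.1), with Benjamini-Hochberg adjustment at 0.05. Fold changes are on this scale, where those of RNAs at or near 0 depend on the pseudocount, since 1 fragment of a short RNA is worth several FPKM. Symbols were taken from the RefSeq table for GRCh38 and strand, hosts and sequences from GENCODE 44 and hg38. Same-numbered libraries were taken to come from the same biological replicate and treated as pairs (Pearson r of their deviations of 0.422 across records). Neither the study's methods nor the labels state outright that equal numbers belong together. Fragment numbers cover counting only, and the FPKM intervals of Cufflinks were not used. The members, lists and named genes were chosen with earlier results of these data known. Named are the 10 SNORA and 5 SCARNA records with the highest mean scaled FPKM among those tested, and a few members and partner genes picked for their roles. Of the members whose arms do not overlap, all 4 that were higher in miR-28BIO and the 5 with the lowest fold changes are named too. Other members of the scaRNA types, of shared hosts and at the length split were named after their values were seen. Alternatives were pseudocounts of 1 and 0.01, no filter on low values or a minimum of 5, FPKM as deposited, upper-quartile scaling, every status kept, limma without a trend, the replicate block, sums per symbol and leaving out each library. The limma script was tested on simulated data. The software was R 4.3.3 with limma 3.58.1 and Python 3.11.15 with pandas 2.3.3, numpy 2.4.6 and matplotlib 3.10.9.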

Additional observations from a re-analysis of the deposited data

How the results depend on the processing

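Under every alternative of scaling, filter, pseudocount, status, trend or block, limma with adjustment called 0 members higher and 0 lower in miR-28BIO. The fits without 1 library gave 0 calls too, but with an arm of 1 library they say nothing about stability. With FPKM summed per symbol, 3 genes in all were lower, none of them a member. Between the replicates, where 0 members passed the adjusted threshold, limma called 37 higher and 4 lower in replicate 2 after adjustment with FPKM summed per symbol (40.2% and 4.35%, against 23.1% and 19.6% of all genes), and 22 higher and 0 lower with a minimum mean of 5 (26.8% and 0.0%, against 16.7% and 8.99%). The replicate block, with the same 0 calls, is given in the text. In subsets chosen after seeing the data, the SNORA and SCARNA medians were -0.38 and -1.12 for members above 0 in all 4 libraries and -1.24 and -1.56 for those with at least 20 fragments, of which 0 had miR-28BIO above miR-28CT and 5 below (0.0% and 20.8%, against 11.9% and 12.1% of all transcripts with as many fragments), although RNAs could pass through 1 arm alone. Leaving out 1 library, members with separate arms numbered 7 to 32 above (7.61% to 34.8%, against 23.4% to 30% of all transcripts) and 13 to 48 below (14.1% to 52.2%, against 25.2% to 36.6%), since 3 libraries separate more easily, and the medians ran from -2.98 to 1.56 (SNORA) and from -1.93 to 0.41 (SCARNA). Among 36 named genes, 24 of 499 refitted fold changes changed sign, 21 of them with a library left out. The values without 1 library ran from -9.43 to 5.54 for SNORA52, -4.09 to 2.22 for SNORA63, -0.61 to 0.0014 for SNORA4, -1.92 to 1.16 for SNORA48, -10.31 to 0.97 for SNORA5A, -3.29 to 0.21 for SNORA8, -7.49 to 5.03 for SNORA9, -2.65 to 5.78 for SNORA74B, -1.56 to 1.57 for SCARNA12, -1.51 to 10.07 for SNORA71D, -4.39 to 0.37 for SCARNA2, -2.18 to 1.24 for GAR1, -1.21 to 0.34 for NAF1, -5.30 to 1.58 for NOLC1 and -3.45 to 1.30 for TERC. Summed per symbol, GAR1 was at 0.50, NAF1 at 0.023 and WRAP53 at 0.028, against -0.47, -0.43 and -0.94 by single records. The cause of these shifts was not tested. Depth limits every value under about 10 fragments.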
